A study of Mus musculus with 16 samples.

Results

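Polycomb repressive complex 2 (PRC2) was described here through the transcripts of 10 of its genes, Ezh1, Ezh2, Eed, Suz12, Rbbp4, Rbbp7, Jarid2, Mtf2, Phf19 and Aebp2. They were taken by symbol, without regard to their levels, from the 57010 genes counted, and all 10 were found and passed the filter on low counts in every comparison. PRC2 methylates histone H3 on the lysine residue H3K27 and so marks chromatin for repression. EZH2 or its paralog EZH1 carries the catalytic domain, EED and SUZ12 are required for activity, and RBBP4 or RBBP7 binds histones within the core. Accessory subunits sort the complex into alternative forms, one with MTF2, PHF19 or PHF1 and another with JARID2 and AEBP2. In granulosa cells, the somatic cells around the oocyte, the study asked whether EZH2 and its mark act on Ephx2, the gene of soluble epoxide hydrolase, which breaks down epoxyeicosatrienoic acids (EETs). Its evidence included less EZH2 protein, less of the mark and more EPHX2 protein in granulosa cells of its endometriosis mice. It also included knockdown and knockout of Ezh2, and ChIP-PCR of the mark at Ephx2. Transcript levels, described here, measure neither EZH2 protein nor the mark.

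RNA-seq was done on mouse granulosa cells (mGCs) in 4 groups of ICR mice. Con-mGC (5 libraries, sham-operated mice) and EM-mGC (5 libraries, mice with endometrium allografted onto the bowel mesentery as an endometriosis model) were sequenced freshly isolated after ovulation induction with gonadotropins. Mice that received grafts had also been given estradiol, which the methods do not state for sham-operated mice. PBS and EET (3 libraries each) were mGCs taken from 6 mice of the EM model, divided, cultured in medium with serum and exposed for 24 h to vehicle or to 14,15-EET at 100 nM. The labels give 24 h of culture in all, while the study's own text places a further 24 h before the treatment, so the length of culture is uncertain. Every cultured library therefore came from the EM model, and no cultured cells of sham-operated mice were analysed here. The labels give no age for these samples. The cells were not sorted, so in these bulk libraries fewer cells of a type and less RNA per cell cannot be told apart.

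Fresh libraries held 14229123 to 15999234 counts each, and cultured libraries held 21384686 to 29482826. Mitochondrial transcripts took 21.8% of EM-mGC-3, 6.76% to 11.1% of the other 9 fresh libraries and 1.18% to 1.64% of the cultured ones. Granulosa markers such as Inha and Foxl2 were present in every library, while the aromatase gene Cyp19a1 was at 140 to 623 CPM (counts scaled to library size) in fresh libraries and at most 0.374 CPM in cultured ones. Fshr went from a median of 98.3 CPM in EM-mGC to 5.16 CPM in PBS. Of the 12 granulosa markers listed, edgeR called 11 lower and 0 higher in PBS against EM-mGC (adjusted p under 0.05). It called 37.9% of all genes lower there. Summed leukocyte markers (13 genes) were at 188 to 389 CPM in Con-mGC, 281 to 688 CPM in EM-mGC and 15.98 to 28.8 CPM in culture. Summed oocyte markers (10 genes) were at 104 to 804 CPM in the fresh libraries and 0.671 to 1.36 CPM in culture, and summed red blood cell markers (5 genes) were at 3461 to 5456 CPM in Con-mGC and 2442 to 16069 CPM in EM-mGC, highest in EM-mGC-3. Their part in the results was not tested. All CPM values below are on 1 TMM scale over the 16 libraries, and fold changes come from each comparison's own fit.

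The 10 genes were transcribed at very different levels. Per kilobase of exon, Rbbp7 led in Con-mGC with a mean of 103 CPM per kb, followed by its paralog Rbbp4 at 20.4, and Phf19 was last at 0.753. The subunits that are needed for catalysis lay close together between these ends, with Suz12 at 15.0, Ezh1 at 11.5, Ezh2 at 10.4 and Eed at 8.996 CPM per kb. Neighbours in this order whose ranges over the 5 Con-mGC libraries overlapped were Ezh1 and Ezh2, Eed and Mtf2, Mtf2 and Jarid2, and Jarid2 and Aebp2. In EM-mGC the order of the means was the same but for Mtf2 and Eed, and only Rbbp7 and Rbbp4 and, at the bottom, Aebp2 and Phf19 were neighbours without overlap. In the cultured groups Aebp2 stood next after Rbbp7 and Rbbp4, at 15.3 CPM per kb in PBS and 16.2 in EET, above Ezh1 at 10.6 and 10.4. Mtf2 stood below Ezh2 without overlap in both cultured groups, at 6.17 and 6.37 CPM per kb. The lengths join all annotated exons of a gene and may differ from those of the transcripts expressed, so the order between genes depends on them. They were 2909 bp for Rbbp7 and 8744 bp for Rbbp4, whose means in Con-mGC before this division were 300 and 178 CPM.

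**Figure D1:**
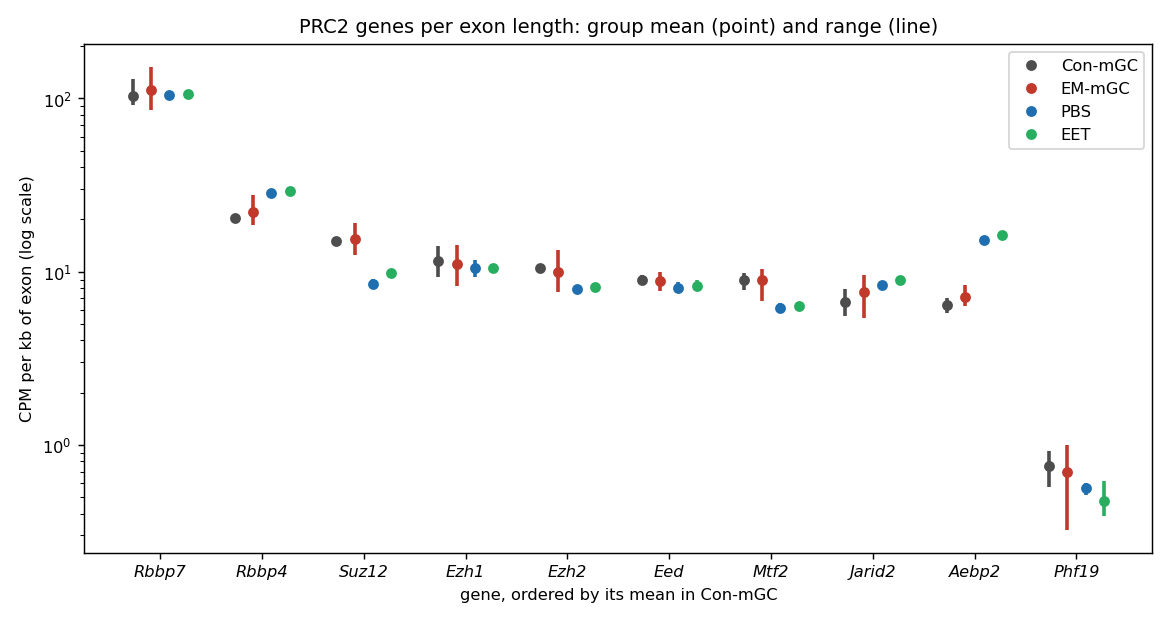
Mean CPM per kilobase of exon on a log axis for the 10 PRC2 genes in the 4 groups, with lines for the range over libraries (5 fresh or 3 cultured). Aebp2 moves from 6.40 CPM per kb in Con-mGC to 15.3 in PBS, while Suz12 moves from 15.0 to 8.51.

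The first comparison asked whether mGCs of EM mice differed in these transcripts from those of sham-operated mice. Ezh2 (ENSMUSG00000029687, chr6:47507073-47572275, minus strand, in the deposited coordinates, for which the submitters' processing notes name GRCm39) was at 70.1, 69.7, 68.9, 65.3 and 74.3 CPM in Con-mGC 1 to 5 and at 61.5, 89.5, 61.6, 51.1 and 68.9 CPM in EM-mGC 1 to 5. The EM values lay on both sides of the narrow Con range, with EM-mGC-2 highest and EM-mGC-4 lowest of all 10 mice. The log2 fold change of Ezh2 was -0.07 (95% interval -0.35 to 0.21, edgeR adjusted p = 0.872). Without EM-mGC-4 it was 0.0076, and without EM-mGC-2 it was -0.20 (edgeR adjusted p = 0.369). The value thus depended on both of these mice. It describes RNA and not the EZH2 protein, which the study reports as lower in mGCs of EM mice.

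None of the 10 genes was called in EM-mGC against Con-mGC (0 of 10), where 0.0% of the 17229 genes tested were called by edgeR's quasi-likelihood test at an adjusted p under 0.05. At an unadjusted p under 0.05 there were 0 of the 10 and 1626 of all genes, and DESeq2 called 113 genes but 0 of these 10. Groups that did not overlap were found for 0 of the 10 and for 1.73% of all genes. The median absolute log2 fold change was 0.094 over the 10 genes and 0.164 over all genes tested. All genes tested were not matched to the 10 in level, so these medians are not like for like. The 95% intervals of 9 of the genes lay between -0.40 and 0.54 on the log2 scale, and that of the sparse Phf19 ran from -0.71 to 0.48.

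For the partners of EZH2 in the core, the group means lay close together and the EM values were spread more widely. Eed, whose product reads the methyl mark, was at 34.4 ± 1.37 CPM (SD, n = 5) in Con-mGC and 33.9 ± 3.35 CPM in EM-mGC, and its log2 fold change was -0.03 (95% interval -0.23 to 0.17). Suz12, which encodes the scaffold of the complex, was at 74.3 ± 3.06 and 76.0 ± 12.6 CPM, with a log2 fold change of 0.03 (95% interval -0.21 to 0.27). Ezh1 was at 85.6 ± 13.3 and 82.8 ± 18.2 CPM, with a log2 fold change of -0.05 (95% interval -0.40 to 0.29). All of these ranges overlapped between the groups. The histone binders Rbbp4 and Rbbp7 had log2 fold changes of 0.12 and 0.12, with their highest level in EM-mGC-3 at 243 and 442 CPM, the library with the largest mitochondrial share. Rbbp7 is uncertain, because Txlng on the other strand overlaps it with counts equal to 11.2% of those of Rbbp7 and the strand setting of the counting is not given in the sources used here.

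Among the accessory genes, Jarid2, which helps to recruit the complex, was at 64.4 ± 10.8 CPM in Con-mGC and 73.8 ± 16.2 CPM in EM-mGC, the largest log2 fold change of the 10 genes at 0.19 (95% interval -0.16 to 0.54, edgeR adjusted p = 0.715). Aebp2, which encodes a zinc finger cofactor, was at 63.0 ± 4.91 and 70.4 ± 7.25 CPM, with a log2 fold change of 0.15 (95% interval -0.06 to 0.36, edgeR adjusted p = 0.622). Mtf2, one of the Polycomb-like genes, was at 50.9 ± 4.75 and 50.9 ± 7.66 CPM. The other Polycomb-like gene, Phf19, rested on 26 to 83 counts per fresh library and was at 3.79 ± 0.641 and 3.52 ± 1.24 CPM. Ephx2 itself was at 527 to 1006 CPM (median 981) in Con-mGC and at 952 to 2079 CPM (median 1338) in EM-mGC. The ranges of Ephx2 overlapped, and its log2 fold change of 0.71 (95% interval 0.17 to 1.25, unadjusted p = 0.0137) was not called by edgeR (adjusted p = 0.462). Of the mouse with the most Ephx2, EM-mGC-4, the Ezh2 level was the lowest, and that with the least Ephx2 among the EM mice, EM-mGC-2, had the most Ezh2. EM-mGC-1 and EM-mGC-3 were alike in Ezh2 (61.5 and 61.6 CPM) but not in Ephx2 (1338 and 1064 CPM). Among the Con mice, Con-mGC-5 had the most Ezh2 and the least Ephx2 (527 CPM). Con-mGC-4 had the least Ezh2 there and the next lowest Ephx2 (614 CPM). A relation of Ezh2 to Ephx2 was not tested.

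**Figure D2:**
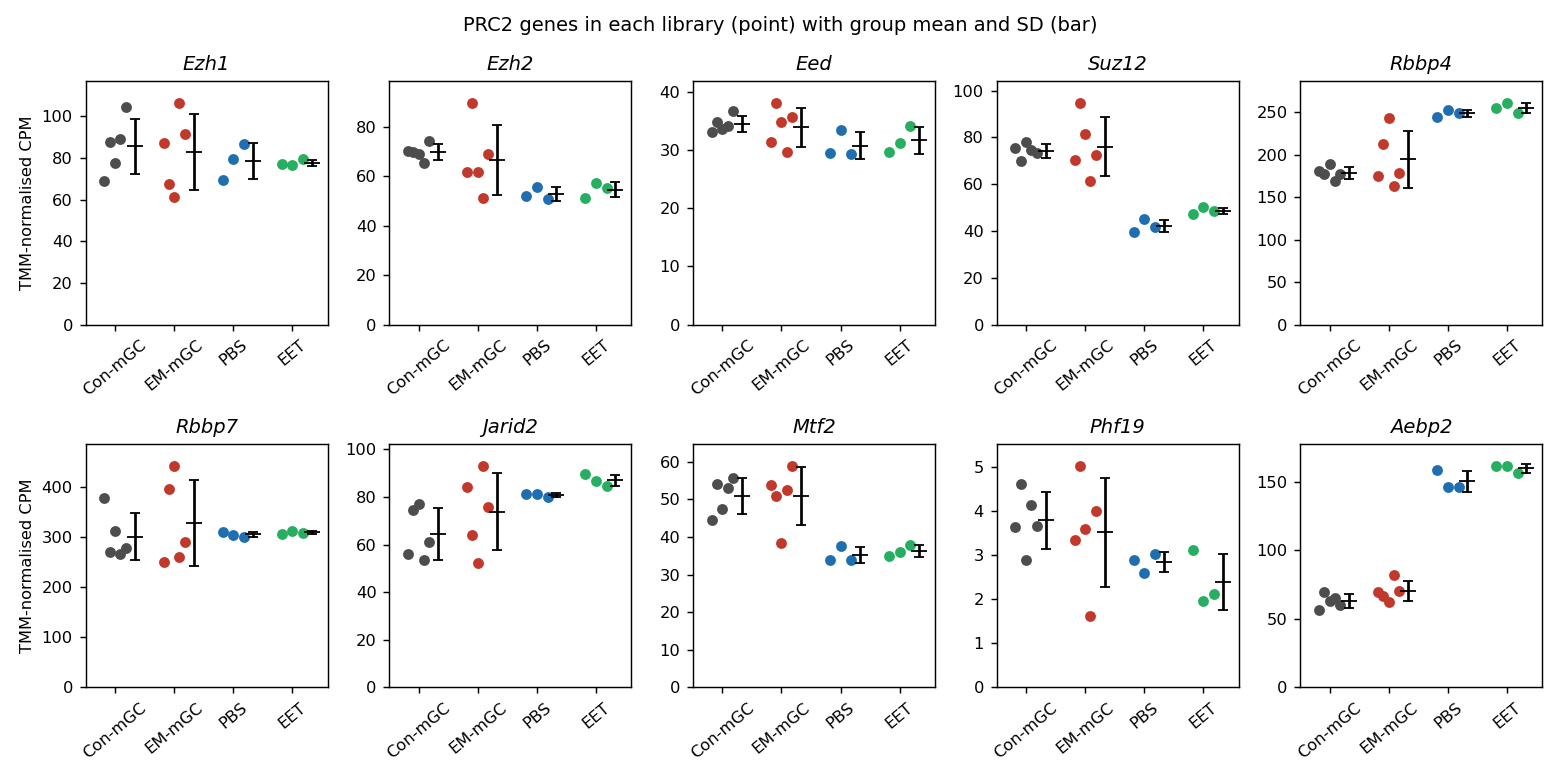
TMM-normalised CPM of each PRC2 gene by library (points) in Con-mGC, EM-mGC, PBS and EET, with the mean and SD of each group as a bar and every axis starting at 0. The EM-mGC points spread around the Con-mGC points, and the cultured points of Aebp2 (146 to 162 CPM) lie above, and those of Suz12 (39.7 to 50.1 CPM) below, all fresh ones.

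The levels of these genes were more spread out among the EM mice than among the Con mice. The coefficient of variation of Ezh2 was 4.61% in Con-mGC and 21.5% in EM-mGC, that of Suz12 was 4.11% and 16.6%, and that of Rbbp4 was 3.95% and 17.0%. It was wider in EM-mGC for 10 of the 10 genes, and for 61.8% of the 17229 genes tested. The median ratio of the variation in EM-mGC to that in Con-mGC was 1.88 over the 10 genes and 1.19 over all genes. Without EM-mGC-3 the wider spread held for 8 of the 10 and for 49.2% of all genes, and with any other library left out for 9 or 10 of the 10. This ratio was computed after the levels had been seen, without matching the genes in level, and is given as a description, with no test.

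The spread had a shape. Ezh2, Eed, Suz12 and Phf19 were each highest of the 10 fresh mice in EM-mGC-2 and lowest in EM-mGC-4. Ezh1, Jarid2 and Aebp2 were each highest in EM-mGC-4, and Ezh1, Jarid2 and Mtf2 were lowest in EM-mGC-3. The Phf19 level was 5.03 CPM in EM-mGC-2 and 1.63 CPM in EM-mGC-4, from 83 and 26 counts. Per kilobase, the ratio of Ezh2 to Ezh1 was 0.792 to 1.13 in Con-mGC, 1.47 in EM-mGC-2 and 0.535 in EM-mGC-4. EZH2 is known as the paralog of dividing cells and EZH1 as that of resting ones, and the summed level of 40 proliferation genes was highest and lowest in the same mice. It was 2964 CPM in EM-mGC-2, 1152 CPM in EM-mGC-4 and 2106 to 2759 CPM in Con-mGC. The sum did not follow the ratio throughout, since Con-mGC-5 had a ratio of 0.792 at 2244 CPM and Con-mGC-3 one of 0.992 at 2107 CPM, and PBS-3 had a ratio of 0.650 at 2189 CPM. The summed granulosa markers were at 24366 and 7569 CPM in the same mice, against 13706 to 18171 CPM in Con-mGC. The part of either in the ratio was not tested.

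**Figure D3:**
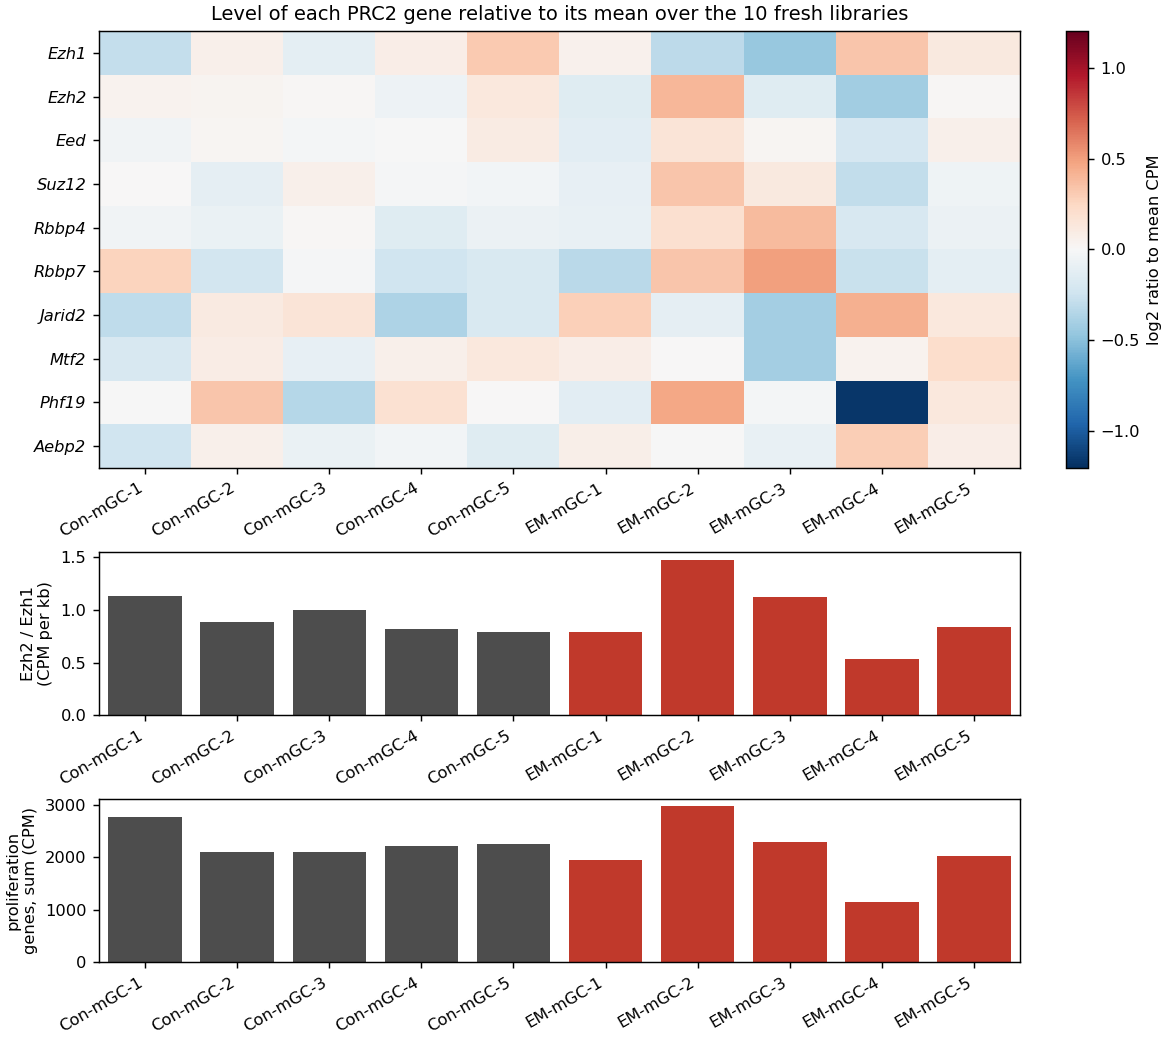
The upper panel gives the log2 ratio of each PRC2 gene to its mean CPM over the 10 fresh libraries, and the bars below give the ratio of Ezh2 to Ezh1 (CPM per kb) and the summed CPM of 40 proliferation genes. EM-mGC-2 and EM-mGC-4 stand at opposite ends, with ratios of 1.47 and 0.535.

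The 10 fresh libraries belong to 1 RNA-seq experiment of the study, and their sequencing batches are not given. Over them, the log2 CPM of Ezh2 had a Pearson correlation of 0.87 with Eed, 0.80 with Phf19, 0.79 with Suz12 and 0.85 with the summed proliferation genes (Spearman 0.71, 0.64, 0.47 and 0.71). Without EM-mGC-2 and EM-mGC-4, the 2 libraries farthest from the median, these were 0.58, 0.15, -0.23 and 0.28, so the relation rested largely on those mice. The summed E2F and RB family genes (0.88) and the summed granulosa markers (0.86) were as close to Ezh2 as the proliferation genes, and went to 0.33 and 0.13 without those mice. With Ezh1 the correlation was -0.37, and 0.48 without those 2 libraries. Over the 10 libraries it was 0.39 with Rbbp7, 0.33 with Rbbp4, 0.11 with Mtf2, -0.39 with Jarid2 and -0.53 with Aebp2. Of the 14648 genes whose log2 CPM averaged 1 or more, the 5 most like Ezh2 were Adgrg7 (0.95), Fam234b (0.95), Dek (0.95), Ints13 (0.94) and Pparg (0.94). DEK is a chromatin protein and PPARG a nuclear receptor. Without the same 2 libraries their correlations were between 0.61 and 0.82.

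Ezh2 and its core partners are known targets of the E2F factors, which drive genes of the cell cycle. The promoters of the 4 genes that shared the highest and the lowest mouse are shown as a description. They run from 250 bases before to 50 bases after the RefSeq start on GRCm38.p6, 5′ to 3′ on the strand of the gene. Capitals mark an E2F-type match, either TTTGGCGC or TTTCCCGC on either strand. The windows are chr6:47594981-47595280 (minus strand) for Ezh2, chr11:79992856-79993155 (plus strand) for Suz12, chr2:34913927-34914226 (minus strand) for Phf19 and chr7:89980927-89981226 (minus strand) for Eed.
Ezh2: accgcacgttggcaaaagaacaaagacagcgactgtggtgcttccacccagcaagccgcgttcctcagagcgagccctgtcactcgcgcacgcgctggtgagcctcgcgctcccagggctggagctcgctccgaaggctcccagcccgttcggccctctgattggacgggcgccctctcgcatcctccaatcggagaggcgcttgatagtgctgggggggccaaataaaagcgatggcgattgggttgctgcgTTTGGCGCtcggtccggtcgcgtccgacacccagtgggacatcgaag
Suz12: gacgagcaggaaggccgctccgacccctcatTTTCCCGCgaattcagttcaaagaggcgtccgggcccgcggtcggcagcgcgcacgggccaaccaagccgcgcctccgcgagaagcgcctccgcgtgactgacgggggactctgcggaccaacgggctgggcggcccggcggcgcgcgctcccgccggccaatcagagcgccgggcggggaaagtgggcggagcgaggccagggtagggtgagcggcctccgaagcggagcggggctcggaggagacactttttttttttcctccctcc
Phf19: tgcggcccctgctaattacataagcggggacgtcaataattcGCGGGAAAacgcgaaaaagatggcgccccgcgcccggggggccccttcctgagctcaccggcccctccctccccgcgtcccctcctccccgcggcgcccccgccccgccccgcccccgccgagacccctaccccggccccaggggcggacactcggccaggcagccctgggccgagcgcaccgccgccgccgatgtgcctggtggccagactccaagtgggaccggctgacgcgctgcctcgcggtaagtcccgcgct
Eed: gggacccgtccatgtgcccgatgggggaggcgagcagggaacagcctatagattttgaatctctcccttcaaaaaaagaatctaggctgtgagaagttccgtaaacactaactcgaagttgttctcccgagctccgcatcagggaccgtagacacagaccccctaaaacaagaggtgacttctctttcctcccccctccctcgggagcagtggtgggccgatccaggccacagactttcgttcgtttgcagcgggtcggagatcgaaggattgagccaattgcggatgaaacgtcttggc
The match began at base 4 after the start in Ezh2 and at bases -219 in Suz12 and -208 in Phf19, where it lay on the other strand. No match stood in the Eed window, nor in those of the other 6 genes, so 3 of the 14 promoters listed for the 10 genes held one, as did 1.56% of the 32851 promoters in the table. CCAAT, the other motif searched, stood in at least 1 promoter of 8 of the 10 genes, and in 37.4% of the 32851 promoters. The first count is by gene and the second by promoter. It had 3 matches in the Ezh2 window and 0 in that of Phf19. The promoters in the table were not matched to those of the 10 genes in base content. A match is a description of these letters and not evidence of binding, and the part of E2F in the levels was not tested.

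The second comparison asked what 14,15-EET changed in cultured EM cells. None of the 10 genes was called in EET against PBS (0 of 10, with 2 at an unadjusted p under 0.05), where edgeR called 1.22% of the 15050 genes tested (0.498% higher, 0.724% lower) and 1868 had an unadjusted p under 0.05. The 2 were Suz12 and Jarid2. Suz12 was at 39.7, 44.9 and 41.7 CPM in PBS 1 to 3 and at 47.4, 50.1 and 48.4 CPM in EET 1 to 3. Every EET library lay above every PBS library. The log2 fold change of Suz12 was 0.21 (95% interval 0.07 to 0.35, unadjusted p = 0.00648, edgeR adjusted p = 0.171). It passed without PBS-2 (adjusted p = 0.0416), the PBS library with the most Suz12.

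Jarid2 was at 81.4, 81.2 and 80.0 CPM in PBS and at 89.5, 86.6 and 84.7 CPM in EET. These ranges did not overlap either, and the log2 fold change of Jarid2 was 0.11 (95% interval 0.01 to 0.22, edgeR adjusted p = 0.372). Groups without overlap were thus found for 2 of the 10 genes, beside 17.3% of all genes tested. Ezh2 was at 52.0, 55.8 and 50.6 CPM in PBS and at 51.1, 57.2 and 55.1 CPM in EET. The 2 groups of Ezh2 values overlapped almost fully, and the log2 fold change was 0.05 (95% interval -0.09 to 0.19, edgeR adjusted p = 0.792). Ephx2 was at 2471 to 2701 CPM in PBS and 2330 to 2474 CPM in EET, a log2 fold change of -0.11 (95% interval -0.23 to 0.01, edgeR adjusted p = 0.448).

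The other 7 genes had log2 fold changes from -0.23 for Phf19 to 0.09 for Aebp2. Leaving out the sparse Phf19, whose interval ran from -0.69 to 0.23, the interval of each of these genes stayed between -0.17 and 0.22. The median absolute log2 fold change was 0.050 over the 10 genes and 0.089 over all genes tested, again not matched in level. The ratio of Ezh2 to Ezh1 per kilobase was 0.650 to 0.833 in PBS and 0.736 to 0.834 in EET.

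The last comparison set the PBS cultures beside the freshly isolated EM-mGC. Both came from the EM model, but culture, the experiment, the sequencing depth and the loss of other cell types cannot be told apart, and the comparison describes these libraries. Of the 10 genes 3 were called, Aebp2 higher and Suz12 and Mtf2 lower, where edgeR called 69.0% of 17301 genes, 31.1% higher and 37.9% lower. The median log2 fold change of all genes was -0.11, and the values below are to be read against it. The median absolute log2 fold change was 0.331 over the 10 genes and 0.808 over all genes, again not matched in level. With upper-quartile scaling 5 of the 10 were called, 1 higher and 4 lower, the split over all genes was 3884 higher and 8040 lower in place of 5381 and 6556, and the median of all genes was -0.36.

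Aebp2 rose most. It was at 69.9, 66.7, 62.6, 82.1 and 70.6 CPM in EM-mGC and at 159, 146 and 146 CPM in PBS. Every cultured library lay far above every fresh one, and the EET libraries, at 162, 162 and 156 CPM, stood there too. The fold was 2.11 (log2 fold change 1.07, standard error 0.10, edgeR adjusted p = 1.25e-05), and the log2 value stayed between 0.82 and 1.16 over the alternatives.

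Suz12 fell from 70.4, 94.6, 81.4, 61.3 and 72.3 CPM in EM-mGC to 39.7, 44.9 and 41.7 CPM in PBS. The groups did not overlap, and the lowest fresh mouse was again EM-mGC-4. Its log2 fold change was -0.87 (standard error 0.14, edgeR adjusted p = 0.000327). Mtf2 fell from 53.8, 51.0, 38.3, 52.5 and 58.9 CPM to 33.9, 37.7 and 33.9 CPM, with the low fresh value in EM-mGC-3 just above the highest cultured one. The log2 fold change of Mtf2 was -0.55 (standard error 0.13, edgeR adjusted p = 0.00406). Mtf2 is uncertain, since Tmed5 overlaps it on the other strand with counts equal to 112% of its own. These 3 calls held under each alternative but for a fold limit of 1 on the log2 scale, under which Aebp2 alone was called.

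The remaining genes were not called. Ezh2 was at 51.1 to 89.5 CPM (median 61.6) in EM-mGC and at 50.6 to 55.8 CPM in PBS, a log2 fold change of -0.35 (95% interval -0.70 to -0.0036, edgeR adjusted p = 0.0672), and its adjusted p was between 0.00700 and 0.175 over the alternatives. Rbbp4 was at 163 to 243 CPM in EM-mGC and 245 to 253 CPM in PBS, without overlap, and its log2 fold change was 0.33 (edgeR adjusted p = 0.0608). Ezh1 (-0.10), Eed (-0.16), Rbbp7 (-0.13) and Phf19 (-0.33) had intervals that held 0. Jarid2, at 0.11, turned to -0.15 with upper-quartile scaling. Counts of the 10 genes without overlap were 4, beside 66.4% of all genes.

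**Figure D4:**
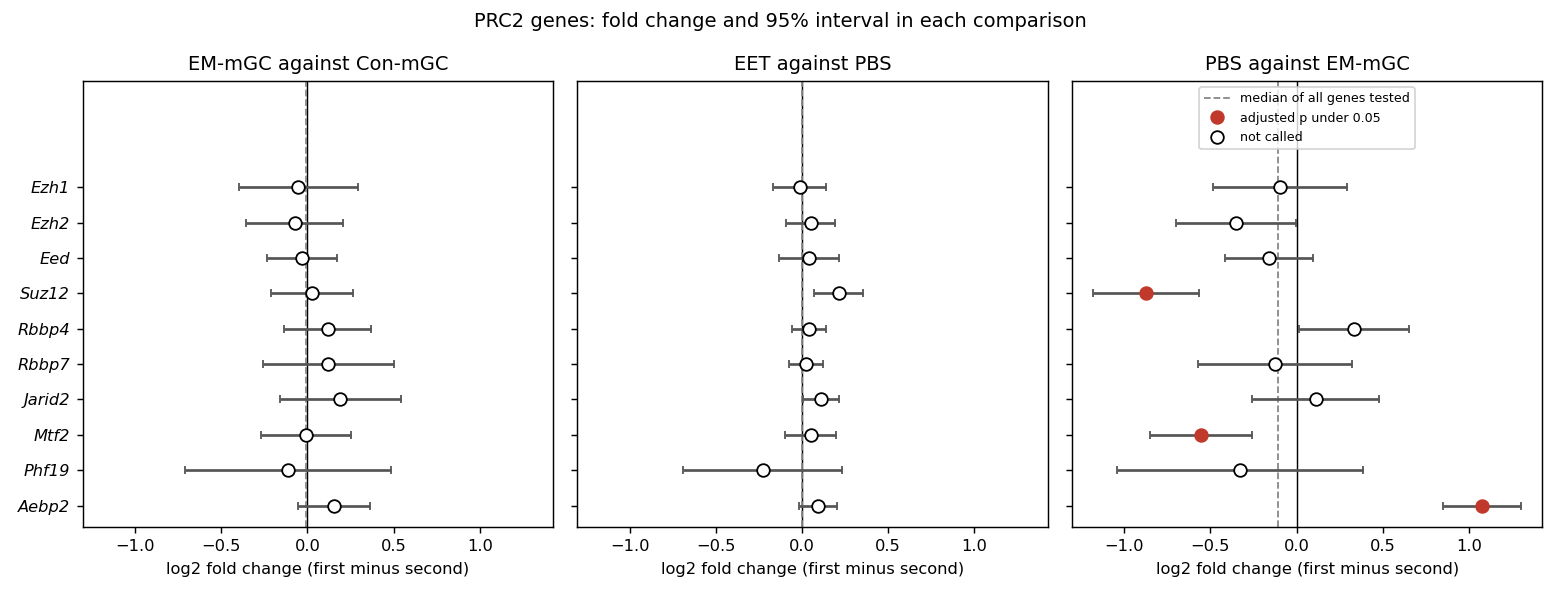
Log2 fold change (first group minus second) of the 10 PRC2 genes with 95% intervals in the 3 comparisons, where filled points had an adjusted p under 0.05 and the dashed line is the median of all genes tested. Filled points are Aebp2 at 1.07, Suz12 at -0.87 and Mtf2 at -0.55 in PBS against EM-mGC only.

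The opposite moves showed in ratios within libraries, which do not depend on the scaling between them. Per kilobase, the ratio of Aebp2 to Suz12 was 0.354 to 0.672 in the 10 fresh libraries and 1.62 to 2.01 in the 6 cultured ones. That of Aebp2 to Mtf2 was 0.629 to 0.946 in fresh and 2.24 to 2.72 in cultured libraries, and that of Jarid2 to Mtf2 was 0.594 to 1.04 and 1.26 to 1.503. The cofactors of the JARID2 and AEBP2 form thus stood higher relative to the Polycomb-like gene Mtf2 in culture in every library. Mtf2 is the denominator in both ratios and is uncertain, since Tmed5 on the other strand had counts equal to 112% of its own. Jarid2 itself was not called in PBS against EM-mGC (log2 fold change 0.11, edgeR adjusted p = 0.572). The ratio of Ezh2 to Eed was 0.987 to 1.35 in fresh and 0.927 to 1.05 in cultured libraries, overlapping. Such ratios show unequal change and not which of the genes moved.

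Other genes of the Polycomb system were read from lists. In EM-mGC against Con-mGC edgeR called 0 genes on each list. Polycomb targets here were a list of Hox genes with Cdkn2a, Cdkn2b and Ephx2, and the mark was not measured in these libraries. At an unadjusted p under 0.05 there were 2 of 24 PRC1 genes and 2 of 18 tested Polycomb targets (of 42 listed), with Ephx2 among the latter. The share over all genes was 1626 of 17229. In EET against PBS it also called 0 of the other PRC2 accessory genes, 0 of 24 PRC1 genes, 0 of 8 tested genes for removal of Polycomb marks and 0 of 11 trithorax genes. An unadjusted p under 0.05 was found there for 4 of 24 PRC1 genes, 1 of 4 tested accessory genes, 1 of 8 genes for removal of the marks, 1 of 11 trithorax genes and 2 of 16 tested Polycomb targets, beside 1868 of 15050 genes in all.

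In PBS against EM-mGC, 4 of the 5 other accessory genes were called, 1 higher and 3 lower, where 69.0% of all genes were called. Epop, whose product links PRC2 to elongin, rose from 1.77 ± 0.625 to 11.7 ± 0.836 CPM, a log2 fold change of 2.70. Lcorl (-1.47) and Phf1 (-0.88), a further Polycomb-like gene, fell, and Lcor was not called at -0.08. Ezhip, a germline gene whose product inhibits PRC2, was at 7.81, 63.6, 101, 23.7 and 37.1 CPM in EM-mGC and had 0 counts in all 6 cultured libraries. It was at least 333-fold lower in PBS, with 3 counts per PBS library as the floor. Ezhip passed the filter through the fresh libraries alone and could only be called lower. The summed oocyte markers were at 104, 698, 804, 242 and 476 CPM in the same EM mice, in the same order as Ezhip. They were at 1.2 to 1.36 CPM in PBS. Among the Con mice the order differed at the top. Con-mGC-1 had 110 CPM of Ezhip and 750 CPM of oocyte markers, and Con-mGC-5 had 53.0 and 767 CPM. The part of the oocyte markers in the Ezhip difference was not tested.

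PRC1, which binds the mark and ubiquitylates H2A, had 18 of 24 genes called, 11 higher and 7 lower, or 75.0% beside 69.0% of all genes. The largest rises were in Bcorl1 (log2 fold change 1.43), Bcor (1.27), L3mbtl2 (1.13) and Pcgf5 (1.01), which belong to variant forms of PRC1. The largest falls were in Scml2 (-3.10), Pcgf1 (-1.67), Rybp (-0.88) and Rnf2 (-0.54), the last a catalytic ubiquitin ligase. PCGF1 and BCOR act in the same variant, so genes of 1 complex moved in opposite directions. Of 8 tested genes for the removal of Polycomb marks 5 were called (62.5%, beside 69.0% of all genes), with Kdm6b, a demethylase, at 1.31, Foxk1 at 1.24, Bap1, the H2A deubiquitinase, at 0.91, Foxk2 at 0.72 and Asxl2 at -0.39. The demethylase Kdm6a was not called, at 0.0039.

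Trithorax genes, which oppose Polycomb by methylating H3 at active genes, had 6 of 11 called, or 54.5% beside 69.0% of all genes. Setd1b (1.08), Setd1a (0.69), Men1 (0.59) and Ash2l (0.33) rose, and Kmt2c (-0.66) and Kmt2a (-0.51) fell. Of the 42 Polycomb target genes listed 18 had counts enough to be tested and 16 were called, Ephx2 among them. Of these, 5 were higher and 11 lower, beside 31.1% higher and 37.9% lower among all genes. Of the 42 listed, 17 had 0 counts over the PBS libraries and 2 had 0 over EM-mGC. A gene absent from PBS, such as Hoxa7, passed the filter through the fresh libraries and could only be called lower. The split is therefore not read as a direction of the targets. Hoxb9 (2.03), Hoxc10 (1.27), Hoxc9 (1.18) and Cdkn2b (1.13), a cell cycle inhibitor, rose beside Ephx2 (0.92), which went from 1358 ± 439 to 2602 ± 118 CPM. Hoxd8 fell from 16.6 to 2.10 CPM and Hoxd4 from 2.66 to 0.299 CPM. Hoxa7, at 1.0995 CPM in EM-mGC, had 0 counts in PBS and was at least 7.85-fold lower against the floor of 3 counts, and Hoxd3 had 1 count over the PBS libraries.

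The proliferation genes had 13 of 40 called in PBS against EM-mGC, 9 higher and 4 lower, a share of 32.5% beside 69.0% of all genes. Rrm2 (1.54), Rrm1 (1.33), E2f1 (1.09) and Tk1 (0.79) rose, and Gins1 (-0.84), Birc5 (-0.82), Ccne2 (-0.76) and Pcna (-0.41) fell. Of 13 genes of the E2F and RB families 8 were called (61.5%, beside 69.0% of all genes), 5 higher and 3 lower, with E2f1 at 1.09, E2f3 at 0.75, Rbl2 at 0.72 and Tfdp1 at 0.69 against E2f5 at -1.66, Rbl1 at -0.60 and Tfdp2 at -0.44.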

How the data were processed

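RNA-seq libraries were made by the authors from poly(A) RNA of 16 mGC samples. The authors deposited raw read counts per Ensembl gene for each library, and 0 columns were left unused. The submitters' processing notes name fastp, HISAT2, StringTie and GRCm39. The strand setting of the counting is not given in the sources used here, so overlapping genes are uncertain. Groups followed the library names. Counts were analysed in R 4.3.3 with edgeR 4.0.16 (filterByExpr, TMM, quasi-likelihood test, Benjamini-Hochberg adjustment over all genes tested, calls at an adjusted p under 0.05), each comparison in a fit of its own 2 groups. DESeq2 1.42.0, other scalings and filters, the replicate number as a block and leaving out each library were alternatives. Levels per kilobase used exon lengths of GENCODE on GRCm38, matched by gene ID for all 10 genes, and promoter sequences came from RefSeq on GRCm38.p6. Correlations used log2(CPM + 0.5). The script steps were tested on simulated counts. The genes named were the 10 PRC2 genes, Ephx2, up to 4 called genes in each direction from each list, and the 5 genes most like Ezh2. The members and lists were chosen with earlier results of these data known. Libraries of 1 group differed by more than sampling noise (chi-square per degree of freedom of at least 2.66). That they are separate samples rests on the labels, and p-values measure only the spread between them.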

Additional observations from a re-analysis of the deposited data

How the results depend on the processing

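Genes called in EM-mGC against Con-mGC were 0, and became 113 with DESeq2, 4 with no filter, 2 with the replicate block, 11 with all 16 libraries in 1 fit, and 0 to 46 with 1 library left out (46 without Con-mGC-3). In EET against PBS 184 became 341 with DESeq2, 662 with no filter, 341 with the replicate block, 0 with all 16 libraries in 1 fit, 9 with a limit of 1 on the absolute log2 value, and 48 (without EET-3) to 436 (without PBS-2) with 1 library left out. In PBS against EM-mGC 11937 became 7214 with that fold limit and 10792 to 12332 with 1 library left out. Of the 10 PRC2 genes, 0 were called in EM-mGC against Con-mGC under each alternative, and in EET against PBS 0 to 1 with 1 library left out and 0 otherwise. In PBS against EM-mGC the 3 became 5 with upper-quartile scaling, 5 with at least 10 counts in every library, 5 with all libraries in 1 fit, 1 with the fold limit, and 3 to 4 with 1 library left out. Ezh2 passed there with DESeq2 (adjusted p = 0.0494), upper-quartile scaling, the count minimum, the replicate block, all libraries in 1 fit and without EM-mGC-4. Eed passed with upper-quartile scaling and the count minimum, and Rbbp4 without EM-mGC-3 and with all libraries in 1 fit.

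Signs turned for small values only. In EM-mGC against Con-mGC the log2 fold change of Mtf2 was 0.0065 with no filter. In PBS against EM-mGC that of Ezh1 was 0.11 with the replicate block, and that of Jarid2 was -0.15 with upper-quartile scaling and -0.049 with the count minimum. With 1 library left out, the EM-mGC against Con-mGC values ran from -0.16 to 0.038 for Ezh1, -0.20 to 0.0076 for Ezh2, -0.076 to 0.012 for Eed, -0.065 to 0.093 for Suz12, -0.013 to 0.22 for Rbbp7, -0.066 to 0.078 for Mtf2 and -0.28 to 0.068 for Phf19. Those of EET against PBS ran from -0.090 to 0.058 for Ezh1 and -0.015 to 0.11 for Eed, and those of PBS against EM-mGC from -0.0035 to 0.20 for Jarid2. The cause was not tested. Cultured libraries of the same number deviated together weakly (correlations of 0.08, 0.15 and -0.04), and the study's design speaks of 3 paired replicates but does not tie the pairs to the library numbers, so the block was kept as an alternative. With the replicate block 0 of the 10 genes were called in EET against PBS, and the adjusted p of Suz12 was 0.0708 in place of 0.171. Phf19, at 26 to 83 counts per fresh library, is limited by depth.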
